A study of Homo sapiens with 2 samples.

Results

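The miR-106b~25 cluster is a group of 3 miRNA hairpins, MIR106B, MIR93 and MIR25, that lie in an intron of MCM7. Its 6 mature arms (hsa-miR-106b-5p, hsa-miR-106b-3p, hsa-miR-93-5p, hsa-miR-93-3p, hsa-miR-25-5p and hsa-miR-25-3p) were chosen by their genomic position and not by their values, and all 6 were among the 859 mature miRNAs counted. They were measured by small RNA sequencing in A549, a human lung adenocarcinoma line, kept for 24 h in normoxia (20% oxygen) or hypoxia (1.2% oxygen). The labels give no other treatment of either culture, and each condition gave 1 library. A difference between them therefore has no replicate to check it against, and no p-value is given. The series compared the small RNA content of these cells at both oxygen levels.

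A miRNA hairpin is cut to a short duplex, from which one strand, the major arm, is mostly kept on an Argonaute protein while the minor arm is mostly lost. The kept strand recognises messenger RNAs chiefly through its seed, the stretch of bases 2 to 8. MCM7 encodes a subunit of the helicase that opens DNA for replication, and it is a known target of E2F and MYC transcription factors. miR-106b and miR-93 are known to repress the cell cycle inhibitor CDKN1A, and miR-25 the proapoptotic factor BCL2L11. The cluster is a paralog of miR-17~92, an oncogenic cluster in lung and other tumours.

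The mature sequences are shown because the seed decides which other miRNAs each arm can be set beside; they are from RefSeq (GRCh38.p14), 5′ to 3′, with bases 2 to 8 in capitals.
hsa-miR-106b-5p: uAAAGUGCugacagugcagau
hsa-miR-93-5p: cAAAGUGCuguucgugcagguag
hsa-miR-25-3p: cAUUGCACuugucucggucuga
hsa-miR-106b-3p: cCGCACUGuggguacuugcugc
hsa-miR-93-3p: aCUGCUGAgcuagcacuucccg
hsa-miR-25-5p: aGGCGGAGacuugggcaauug
hsa-miR-106b-5p and hsa-miR-93-5p had the same seed, although 7 edits (substitutions, insertions or deletions) separated their full sequences. hsa-miR-25-3p had another seed. The seeds of the 3 minor arms were found in 0 other listed mature miRNAs that had a RefSeq sequence.

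In GRCh38 the 3 hairpins lie on chromosome 7 on the minus strand, which is also the strand of MCM7 (100092728 to 100101940). MIR106B spans 100093993 to 100094074, MIR93 100093768 to 100093847 and MIR25 100093560 to 100093643. Read along the transcript, MIR106B comes first and MIR25 last, with 145 bases between MIR106B and MIR93 and 124 bases between MIR93 and MIR25. All 3 fall in intron 13 of the 14 introns of the MCM7 transcript used here as the reference. That intron is 771 bases long, and 0 of 13 annotated MCM7 transcripts hold a hairpin in an exon. The hairpins of MIR106B and MIR25 are printed from RefSeq, 5′ to 3′ with both arms in capitals, because they show the opposite placing of the major arm, which is the 5p arm in MIR106B and the 3p arm in MIR25.
MIR106B: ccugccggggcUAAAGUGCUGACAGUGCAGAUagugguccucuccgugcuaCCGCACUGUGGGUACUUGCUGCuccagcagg
MIR25: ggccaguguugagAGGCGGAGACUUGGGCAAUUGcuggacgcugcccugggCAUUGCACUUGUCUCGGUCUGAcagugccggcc
The stretch between the arms was 19 bases in MIR106B, 16 bases in MIR93 and 17 bases in MIR25.

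Mature miRNAs took 4514818 counts in the normoxia library and 8600160 in the hypoxia library, and a level is given as CPM, the counts scaled to a mature total of 1000000 in each library. Intervals are exact 95% intervals (Clopper-Pearson for levels and shares, conditional binomial for ratios). They cover counting error only, since each condition gave 1 library. The reads were amplified by PCR without molecular identifiers, so the intervals treat copies of a molecule as separate counts. hsa-miR-210, the best known hypoxia-induced miRNA, was at 954 CPM in normoxia and 2657 CPM in hypoxia, the highest log2 ratio (1.48) of the 339 mature miRNAs past the filter on level described below. The 6 epithelial markers (the miR-200 family and miR-205-5p) summed to 1168 and 1362 CPM. Of this sum miR-200b-3p alone gave 880 and 1085 CPM, while miR-205-5p had 12 and 15 counts. The endothelial marker miR-126-3p was at 179 and 190 CPM, the 2 smooth muscle and fibroblast markers summed to 129 and 118 CPM, and the blood markers, of which 3 of 5 were listed, to 19.7 and 23.1 CPM. The striated muscle markers, of which 1 of 3 was listed, had 0 and 18 counts, the liver marker 4 and 4 counts and the neuron marker 3 and 6 counts. Mature miRNAs made up 70.0% of all counted small RNA in normoxia and 65.6% in hypoxia, and rRNA fragments 3.77% and 6.55%. The part of these differences in the results was not tested.

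The major arms stood high in both libraries. hsa-miR-106b-5p had 26267 counts in normoxia and 45847 in hypoxia, or 5818 CPM (interval 5748 to 5889) and 5331 CPM (5282 to 5380). It was the 10th most abundant mature miRNA in normoxia and the 18th in hypoxia. hsa-miR-25-3p had 12958 and 28375 counts, or 2870 CPM (2821 to 2920) and 3299 CPM (3261 to 3338), at ranks 27 and 26. Its rank was nearly unchanged while hsa-miR-106b-5p lost 8 places. hsa-miR-93-5p had 4229 and 13327 counts, or 937 CPM (909 to 965) and 1550 CPM (1523 to 1576), and moved from rank 65 to rank 47. For each of these 3 arms the intervals of the libraries did not overlap, which was also so for 51.6% of the 339 mature miRNAs past the filter on level.

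The minor arms, the strands mostly discarded, were far lower. hsa-miR-106b-3p had 602 counts in normoxia and 1549 in hypoxia, or 133 CPM (123 to 144.4) and 180 CPM (171 to 189). hsa-miR-93-3p had 389 and 872 counts, or 86.2 CPM (77.8 to 95.2) and 101 CPM (94.8 to 108), so that its intervals just overlapped. hsa-miR-25-5p had 24 and 28 counts, or 5.32 CPM (3.41 to 7.91) and 3.26 CPM (2.16 to 4.71), with overlapping intervals. The order of the 6 arms was the same in both libraries, with hsa-miR-106b-5p first, then hsa-miR-25-3p, hsa-miR-93-5p, hsa-miR-106b-3p, hsa-miR-93-3p and hsa-miR-25-5p. No neighbours in that order had overlapping intervals within a library.

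**Figure D1:**
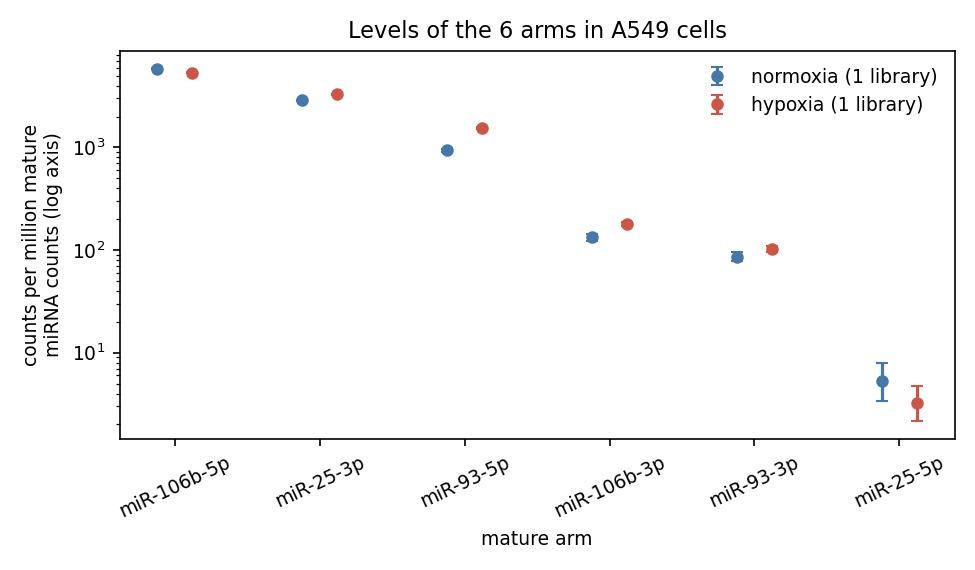
Level of each mature arm of the cluster in the normoxia library (blue) and the hypoxia library (red), as CPM on a log axis, with bars for the exact 95% counting interval (often smaller than the point). The arms keep their order in both libraries, from hsa-miR-106b-5p at 5818 and 5331 CPM to hsa-miR-25-5p at 5.32 and 3.26 CPM.

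Summed over the 6 arms, the cluster took 44469 counts in normoxia, or 0.985% of mature counts (0.976 to 0.994), and 89998 in hypoxia, or 1.05% (1.04 to 1.05). As a share of all counted small RNA it was 0.690% (0.683 to 0.696) in normoxia and 0.686% (0.682 to 0.691) in hypoxia. These intervals overlapped, so the small difference seen with mature counts was not seen with this denominator.

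The comparison of hypoxia with normoxia asks which miRNAs change with oxygen, and within the cluster the arms did not move alike. The largest difference among the major arms was that of hsa-miR-93-5p, which was 1.65-fold higher in hypoxia, a log2 ratio of 0.73 (interval 0.68 to 0.78). hsa-miR-25-3p was slightly higher, at 0.20 (0.17 to 0.23). hsa-miR-106b-5p was slightly lower, at -0.13 (-0.15 to -0.10). The first and the last of these carry the same seed, and their log2 ratios lay further from each other than either did from that of hsa-miR-25-3p. Among the minor arms, the log2 ratio was 0.43 (0.30 to 0.57) for hsa-miR-106b-3p and 0.23 (0.06 to 0.41) for hsa-miR-93-3p. hsa-miR-25-5p had -0.66 with an interval of -1.55 to 0.14, which includes no change.

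Set against the rest of the library these were moderate ratios. The size rule took a miRNA as higher or lower where its log2 ratio was 0.9 or more away from 0 and its mean log2 CPM above 3. The filter on mean log2 CPM was passed by 339 mature miRNAs and by 5 of the 6 arms, all but hsa-miR-25-5p. The rule took 12 miRNAs as higher and 11 as lower, 6.78% of those past the filter, and 0 of the 5 arms. With the TMM scaling of edgeR the split was 8 higher and 15 lower. The median log2 ratio of the 339 miRNAs was 0.08 and their quartiles were -0.22 and 0.38. Ranked from the highest ratio, hsa-miR-93-5p came 23rd, hsa-miR-106b-3p 68th, hsa-miR-93-3p 125th, hsa-miR-25-3p 136th and hsa-miR-106b-5p 240th. The counting interval excluded no change for 5 of 5 arms past the filter, against 63.1% of the miRNAs past the filter, a share that rests on depth, since 1 library cannot give the spread between cultures.

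**Figure D2:**
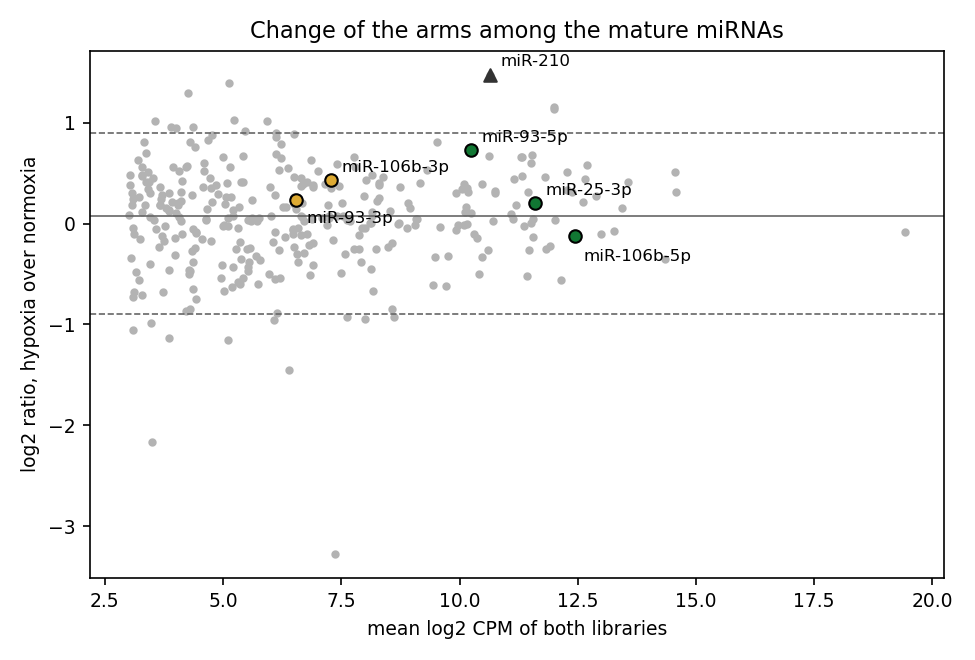
Log2 ratio of hypoxia over normoxia against the mean log2 CPM of both libraries, for the 339 mature miRNAs past the filter (grey), with the 3 major arms in green, 2 minor arms in yellow and hsa-miR-210 as a triangle. Dashed lines mark 0.9 in either direction and the solid line the median of 0.08; hsa-miR-93-5p at 0.73 lies nearest to the dashed line among the arms and none of the 5 passes it.

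Another scaling shifts all ratios of the library by the same amount. The shift was -0.11 with TMM and -0.20 with totals that leave out the top 10 miRNAs of each library, 11 in all. hsa-miR-106b-5p, 10th in normoxia, is itself one of the 11, and with it kept in the totals the shift was -0.19. hsa-miR-93-5p stayed above 0 with each of the 4 other scalings, at 0.53 to 0.66, and hsa-miR-106b-5p below 0, at -0.32 to -0.20. hsa-miR-25-3p lay nearer to 0 at the outset, and its log2 ratio was 0.09 with TMM and 0.01 without the most abundant miRNAs. hsa-miR-93-3p went in the same way from 0.23 to 0.12 and 0.04. No arm changed sign or passed the size rule with any of these scalings.

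**Figure D3:**
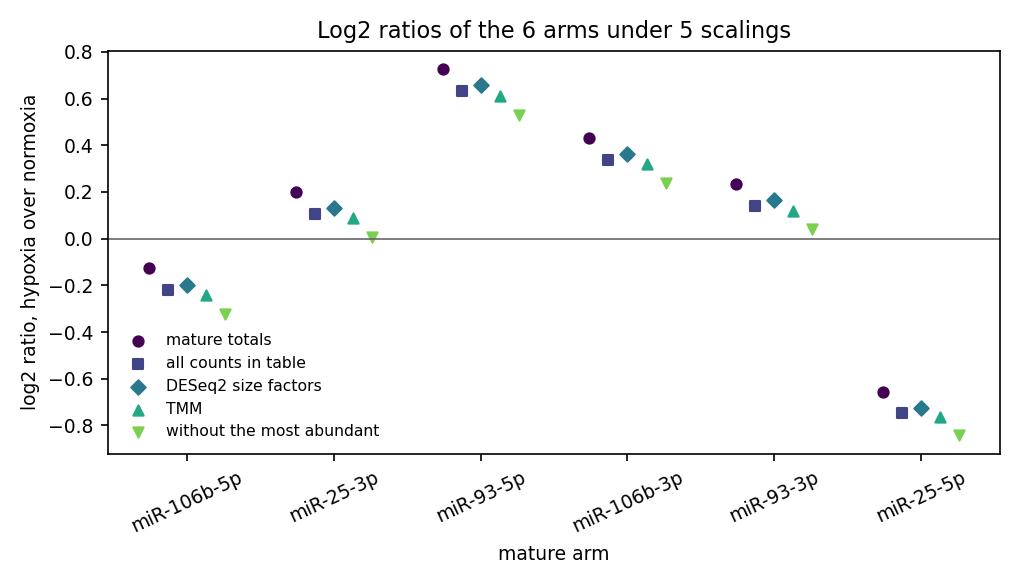
Log2 ratio of hypoxia over normoxia for each of the 6 arms under 5 scalings of the libraries (mature totals, all counts in the table, DESeq2 size factors, TMM, and mature totals without the most abundant miRNAs). The points of an arm shift together, and hsa-miR-25-3p comes closest to 0 (0.01) while hsa-miR-93-5p stays at 0.53 or above.

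Ratios between arms within a library do not depend on the scaling. Of the counts on the 3 major arms, hsa-miR-106b-5p held 60.4% (59.99 to 60.9) in normoxia and 52.4% (52.0 to 52.7) in hypoxia. hsa-miR-93-5p held 9.73% (9.46 to 10.0) and 15.2% (15.0 to 15.5). hsa-miR-25-3p held 29.8% (29.4 to 30.3) and 32.4% (32.1 to 32.7). The cluster was thus led by the same arm at both oxygen levels, but by less in hypoxia. hsa-miR-106b-5p had 6.21 counts for each count of hsa-miR-93-5p in normoxia and 3.44 in hypoxia, a log2 change of -0.85 (counting SE 0.03). Its ratio to hsa-miR-25-3p was 2.03 and 1.62, a log2 change of -0.33 (SE 0.02). The ratio of hsa-miR-93-5p to hsa-miR-25-3p was 0.326 and 0.470, a log2 change of 0.53 (SE 0.03). These are differences between libraries and their spread between cultures is unknown.

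The share of a hairpin's counts on its minor arm also differed in direction among the 3 hairpins. In MIR106B the 3p arm took 2.24% (2.07 to 2.42) of the counts in normoxia and 3.27% (3.11 to 3.43) in hypoxia. In MIR93 the 3p arm took 8.42% (7.64 to 9.26) and 6.14% (5.75 to 6.55). In MIR25 the 5p arm took 0.185% (0.118 to 0.275) and 0.0986% (0.0655 to 0.142). The minor share was thus higher in hypoxia for MIR106B and lower for MIR93, with intervals that did not overlap, while the intervals of MIR25 did. The intervals of the libraries did not overlap for 37.1% of the 124 hairpins compared below. The log2 odds of the minor arm differed by 0.56 (counting SE 0.07) for MIR106B, -0.49 (SE 0.09) for MIR93 and -0.91 (SE 0.40) for MIR25.

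MIR25 was the most one-sided of the 3, with 540 counts of the major arm for each count of the minor arm in normoxia and 1013 in hypoxia. The same figures were 43.6 and 29.6 for MIR106B and 10.9 and 15.3 for MIR93. Both arms were listed for 199 hairpin names, of which 124 had at least 100 counts in each library. Over these 124, the median minor share was 3.85% in normoxia and 3.94% in hypoxia. From the lowest share in normoxia, MIR25 came 11th, MIR106B 52nd and MIR93 79th. The size of the change was close to the median of 0.50 over the 124 for MIR106B and MIR93 (ranks 56 and 65 from the largest), and MIR25, whose change rests on 24 and 28 counts, came 28th. The minor share was higher in hypoxia in 58 of the 124.

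**Figure D4:**
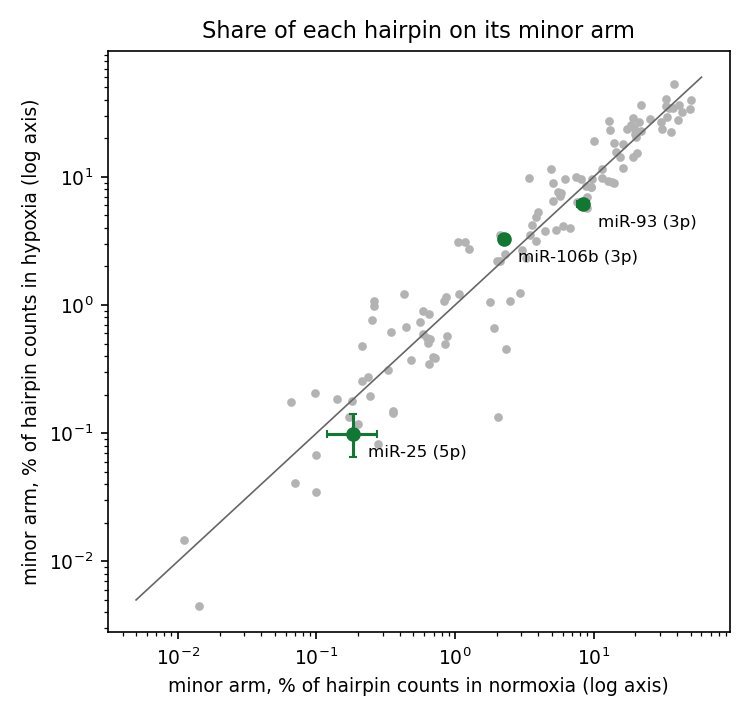
Share of each hairpin's counts on its minor arm in normoxia (horizontal) and hypoxia (vertical), both in percent on log axes, for the 3 hairpins of the cluster (green, with exact 95% intervals) and 121 other hairpins (grey); the line marks equal shares. MIR106B lies above the line at 2.24% and 3.27%, and MIR93 (8.42% and 6.14%) and MIR25 (0.185% and 0.0986%) lie below it.

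The arms share their seeds with miRNAs from other loci, and the members of a seed family can recognise the same kind of site. The seed of hsa-miR-106b-5p and hsa-miR-93-5p was carried by 7 listed miRNAs, the miR-17 seed family. The sequences of its other abundant members are shown for comparison with the arms above, with bases 2 to 8 in capitals.
hsa-miR-20a-5p: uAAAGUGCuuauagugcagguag
hsa-miR-17-5p: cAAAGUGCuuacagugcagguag
hsa-miR-17-5p was 3 edits from hsa-miR-93-5p and 5 from hsa-miR-106b-5p, so that by sequence hsa-miR-93-5p was nearer to its paralogs than to its neighbour in the intron. How reads that fit several such miRNAs were assigned is a detail not given in the sources used here.

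hsa-miR-106b-5p was the most abundant of the 7 in both libraries. hsa-miR-20a-5p, from the miR-17~92 cluster, came next with 5459 CPM (5391 to 5527) in normoxia and 3717 CPM (3677 to 3758) in hypoxia, a log2 ratio of -0.55 (-0.58 to -0.53). hsa-miR-17-5p was at 3149 and 2863 CPM, with a log2 ratio of -0.14 (-0.17 to -0.11), close to the -0.13 of hsa-miR-106b-5p. hsa-miR-106a-5p (49.4 and 41.5 CPM), hsa-miR-20b-5p (15.1 and 17.4 CPM) and hsa-miR-519d (1 and 4 counts) were minor. hsa-miR-93-5p had the highest log2 ratio of the 6 family members past the filter.

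The family as a whole stood at 15426 CPM in normoxia and 13521 CPM in hypoxia. The part of it from the MCM7 intron was 43.8% (43.4 to 44.2) in normoxia and 50.9% (50.6 to 51.2) in hypoxia. hsa-miR-106b-5p alone held 37.7% and 39.4% of the family, hsa-miR-93-5p 6.07% and 11.5%, and hsa-miR-20a-5p 35.4% and 27.5%. Without hsa-miR-20a-5p the part from the intron was 67.8% in normoxia and 70.2% in hypoxia, a smaller gap in the same direction.

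The seed of hsa-miR-25-3p was carried by 5 listed miRNAs, the miR-92 seed family, in which the nearest sequence, shown here with bases 2 to 8 in capitals, was 4 edits away.
hsa-miR-92a-3p: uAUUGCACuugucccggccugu
hsa-miR-92a-3p led this family with 10114 CPM in normoxia and 9638 CPM in hypoxia, a log2 ratio of -0.07 (-0.09 to -0.05). hsa-miR-25-3p came next with 20.4% (20.1 to 20.8) of the family in normoxia and 23.2% (22.9 to 23.4) in hypoxia. hsa-miR-92b-3p was at 952 and 1248 CPM, a log2 ratio of 0.39 (0.34 to 0.44). hsa-miR-32-5p, at 93.7 and 48.0 CPM, had a log2 ratio of -0.96 (-1.16 to -0.77) and was the only one of the 12 miRNAs of both families past the size rule. hsa-miR-363-3p, with 28 and 25 counts, did not pass the filter. The family stood at 14036 and 14236 CPM, nearly the same level in both libraries.

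**Figure D5:**
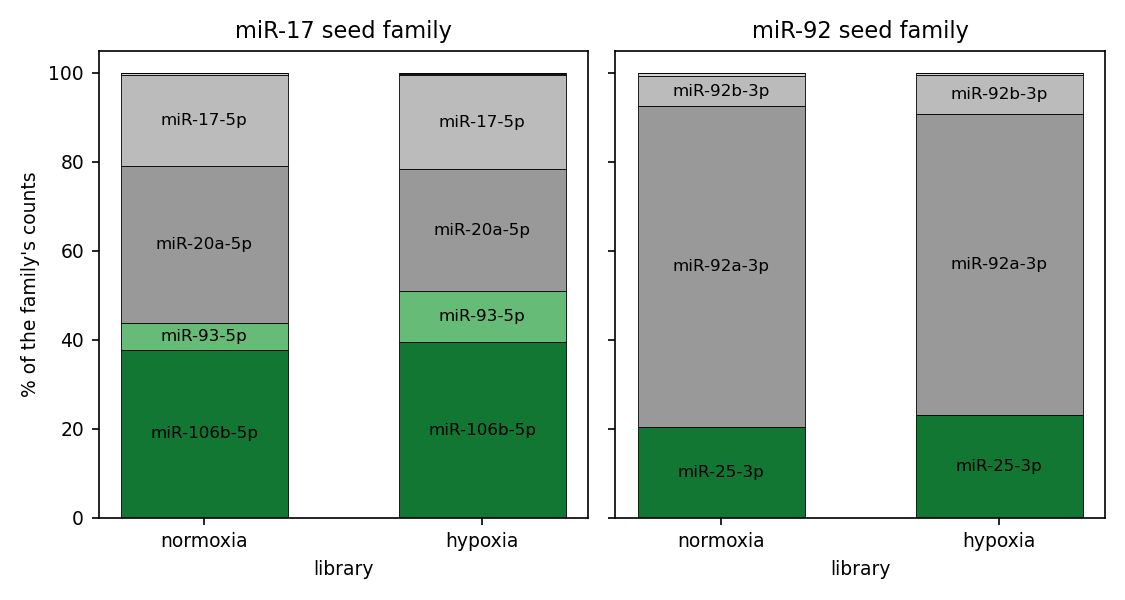
Make-up of the miR-17 seed family (left) and the miR-92 seed family (right) in each library, as percent of the family's counts; arms from the MCM7 intron are green and the others grey, with the smallest members unlabelled. The green part is 43.8% in normoxia and 50.9% in hypoxia on the left, and 20.4% and 23.2% on the right.

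The paralogous clusters were set beside the MCM7 intron by the counts of their arms. Here higher and lower mean a log2 ratio above or below 0, of any size. miR-106b~25 had 4 arms higher and 1 lower in hypoxia among the 5 past the filter. Its median log2 ratio was 0.23, the value of the minor arm hsa-miR-93-3p. The median for all miRNAs past the filter was 0.08, itself above 0. miR-17~92 had 12 listed arms, of which 8 passed the filter, 2 higher and 6 lower, with a median of -0.14 (-0.20 without the arms shared with the other paralog). For miR-106a-363, 5 of 8 listed arms passed the filter, 2 higher and 3 lower, with a median of -0.07 that is the value of hsa-miR-92a-3p, an arm counted in both paralogs. Without the arms shared by both, 3 arms of miR-106a-363 passed the filter, 1 higher and 2 lower, with a median of -0.25. In both paralogs 0 arms passed the size rule. With TMM the shift given above applies to all these medians alike.

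Within miR-17~92 the arms were also uneven. hsa-miR-19b-3p was at 10447 CPM in normoxia and 13882 CPM in hypoxia, a log2 ratio of 0.41 (0.39 to 0.43). hsa-miR-19a-3p had -0.27, hsa-miR-18a-5p -0.14 and hsa-miR-18a-3p 0.19, and the lowest of the 8 was hsa-miR-17-3p with -0.75 at 27.7 and 16.4 CPM. hsa-miR-19b-3p and hsa-miR-92a-3p are each made by hairpins of both paralogs, so their counts cannot be assigned to a locus. miR-17~92 took 3.38% of mature counts in normoxia and 3.41% in hypoxia with the shared arms, and 1.32% and 1.06% without them, beside 0.985% and 1.05% for the MCM7 intron. Without the shared arms, miR-106a-363 took 0.0159% and 0.0123%.

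The mature miRNAs nearest to each major arm in level over both libraries (Euclidean distance in log2 CPM) were not members of its seed family. hsa-miR-181a-5p, at 4766 and 5942 CPM, was nearest to hsa-miR-106b-5p, with a distance of 0.33. hsa-miR-125a-5p, at 5785 and 6722 CPM, followed at the same rounded distance. hsa-miR-484 (1006 and 1285 CPM) and hsa-miR-194-5p (1043 and 1297 CPM) were nearest to hsa-miR-93-5p, at 0.29 and 0.30. hsa-miR-320a (2935 and 3032 CPM) and hsa-miR-339-5p (2900 and 2909 CPM) were nearest to hsa-miR-25-3p, at 0.13 and 0.18. The likeness is over 2 libraries only and is a description.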

How the data were processed

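Small RNAs of A549 cells were sequenced on the SOLiD platform after ligation and PCR, with 1 library per condition and no molecular identifiers. The authors deposited raw counts for 5475 small RNA features, not normalized. The methods name LifeScope version 2.5.1 at default parameters and miRBase version 18 for SOLiD small RNA data, and the submitters' processing notes name hg19. The smallest sum of counts over both libraries among the listed features was 3. The 859 mature miRNAs were used.

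Counts were divided by the mature totals, and log2 ratios are differences of log2 CPM from edgeR version 4.0.16, prior count 2, in R version 4.3.3. Python version 3.11.15 with scipy version 1.17.1 gave the intervals. With 1 library per condition, no test of the condition was made. Calls follow the rule of size (0.9, mean log2 CPM above 3). The calculation was tested on simulated counts with counting error only, and with miRNAs either unchanged or changed beyond the size rule. That test did not cover the spread between cultures. Alternatives were TMM, DESeq2 version 1.42.0 size factors, other totals, thinning of the hypoxia library to the depth of the other, filters and thresholds, a smaller prior count (0.5), bases 2 to 7 as the seed, and both arms summed.

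Of the mature names, 687 were in the RefSeq table (GRCh38.p14) and 72 more were matched by sequence, while 100 had no match and entered no seed family. The deposited sequences run 1 base past each end for 653 names, all 6 arms included, so seeds were read from RefSeq. Positions come from GENCODE version 29 in GRCh38, matched by hairpin. The deposited coordinates served to place arms within the hairpin features. The named miRNAs are the 6 arms, miRNAs sharing bases 2 to 8 with them, the arms of the paralogous clusters, miR-210 and the 2 miRNAs nearest in level to each major arm, beside the cell type markers, a list of their own. Members and lists were chosen with earlier results of these data known.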

Additional observations from a re-analysis of the deposited data

Results flagged for a closer look

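Beside the mature arms, the counts include features for whole hairpins, which were used in no comparison above. There are no libraries without these hairpins to set a background, and the features are listed here because they exceed the 3 counts that a count of 0 allows. The MIR106B feature had 16 counts in normoxia and 30 in hypoxia. The MIR93 feature had 20 and 21 counts, and the MIR25 feature had 12 in hypoxia and 1, under that limit, in normoxia. Set against the counts of the arms and the hairpin feature together, these were 0.0595% (0.0340 to 0.0966) and 0.0633% (0.0427 to 0.0903) for MIR106B, 0.431% (0.264 to 0.665) and 0.148% (0.0914 to 0.226) for MIR93, and 0.00770% and 0.0422% for MIR25. The medians over the 101 hairpins compared were 0.2002% and 0.230%.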

How the results depend on the processing

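No log2 ratio of an arm changed sign under the alternatives run, and no arm passed the size rule under any of them. For the 3 major arms, each other scaling put the log2 ratio outside its counting interval. It was -0.24 (TMM), -0.20 (DESeq2 size factors), -0.32 (without the most abundant miRNAs) and -0.22 (all counts in the table) for hsa-miR-106b-5p. In the same order it was 0.61, 0.66, 0.53 and 0.63 for hsa-miR-93-5p and 0.087, 0.13, 0.0055 and 0.11 for hsa-miR-25-3p. These moves follow from the scaling itself, which shifts all ratios alike. The size rule took 5 miRNAs as higher and 18 as lower without the most abundant miRNAs, 8 and 15 with DESeq2 size factors or all counts, 113 and 64 with no filter, 9 and 7 at a mean CPM of at least 20, and 8 and 6 at a log2 ratio of 1. The cluster's share was 0.690% in normoxia and 0.686% in hypoxia of all counts, with overlapping intervals. Of mature counts without the most abundant miRNAs it was 2.61% and 2.90%, a total and a sum that both leave out hsa-miR-106b-5p. With that arm kept in both it was 6.14% and 5.73%, so its direction depended on the denominator. Summing both arms gave MIR93 10.4% and 15.8% of the cluster and MIR25 29.2% and 31.6%. The part of the miR-17 seed family from the cluster was 67.8% and 70.2% without hsa-miR-20a-5p. This alternative, the total that keeps hsa-miR-106b-5p and the paralogs without their shared arms were added once the data had been seen.

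With 1 library a condition, none was left out. For the same reason no paired analysis was possible. The intervals cover counting error only. Ligation and amplification favour some sequences, so levels of different miRNAs are compared as counted. The depth limits hsa-miR-25-5p, with 24 and 28 counts, more than any other arm. Reads shared between near-identical members of a seed family cannot be traced in these counts.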
